A study of Rattus norvegicus with 3 samples.

Results

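The genes for the proteins of the mitochondrial ribosome were examined in the motor cortex of untreated rats. Members were taken by name, as every gene whose symbol starts with Mrpl or Mrps and continues with a digit, in any case. The rule found 79 of the 30957 genes listed, under 76 distinct symbols. The tissue came from 3 male rats of the outbred Sprague-Dawley stock, given in the labels as the normal group without treatment, at a time of 8 weeks that is not said to be an age. No other group was analysed here, so no comparison between conditions can be made. 1 mRNA library per animal (numbers 32, 39 and 68) was deposited as FPKM, fragment counts scaled by gene length and by sequencing depth, with loci in the Rnor_6.0 build. In bulk tissue, fewer cells of a type and less RNA per cell cannot be told apart, and neither can differences between animals, dissections and library preparations.

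The mitochondrial ribosome sits in the matrix and makes the few proteins that the mitochondrial genome still encodes, which are core subunits of the respiratory chain and of ATP synthase. Its ribosomal RNAs are encoded in the mitochondrion, whereas all of its proteins are encoded in the nucleus, made in the cytosol and imported. The small subunit (proteins named Mrps) binds the messenger and reads its codons, and the large subunit (named Mrpl) joins the amino acids and holds the exit tunnel, which opens at the inner membrane. Part of the proteins have counterparts in bacterial ribosomes, and the others were added during mitochondrial evolution. Neurons rely heavily on respiration, and inherited defects of several of these proteins cause disease in humans.

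Depth and composition were as follows. Depths inferred from short genes were 16550241, 15460924 and 17670986 fragments for animals 32, 39 and 68, so that 1 FPKM stood for 16.6 ± 1.11 fragments per kilobase (SD, n = 3). The neuronal markers chosen for this work (Snap25, Syt1, Rbfox3, Slc17a7 and Gad1) were present in every library, with a median of 383 ± 44.4 FPKM, and summed to 2312, 2020 and 1619 FPKM in animals 32, 39 and 68. Animal 68 stood apart in its makeup. Its 7 choroid plexus markers summed to 7524 FPKM, against 11.5 in animal 32 and 632 in animal 39, and its 5 oligodendrocyte markers to 8131 against 3020 and 4646. All 7 and all 5 were highest in animal 68, as were all 5 markers each of astrocytes (424, 455 and 824 FPKM summed), microglia (33.5, 54.4 and 80.8) and striatum (72.7, 64.6 and 179). None of the 5 neuronal markers was highest in animal 68, and the 3 endothelial markers found were highest in animal 32 (66.7, 64.2 and 54.3 FPKM summed).

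Transcripts of the family were present at moderate and even levels. At a mean of at least 1 FPKM, the filter used below, 73 of the 79 rows were retained, and the other 6 were listed at 0 in every library. Over all 79 rows the median was 14.9, 15.1 and 15.1 FPKM in animals 32, 39 and 68 (15.0 ± 0.140, SD, n = 3), and over the 73 past the filter it was 15.7 ± 0.207. Of these 73 genes, 60 had a mean from 10 to 50 FPKM, 12 lay below 10 and only Mrpl17 exceeded 50. Of all 13378 genes past the filter, 5363 had a mean from 10 to 50 FPKM. Together the members held 0.303, 0.306 and 0.313% of all FPKM in the 3 libraries. The mean of the highest member was 23.5 times that of the lowest past the filter, while the 90th percentile of members was 4.82 times the 10th, against 28.2 times for the 13378 genes past the filter.

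**Figure D1:**
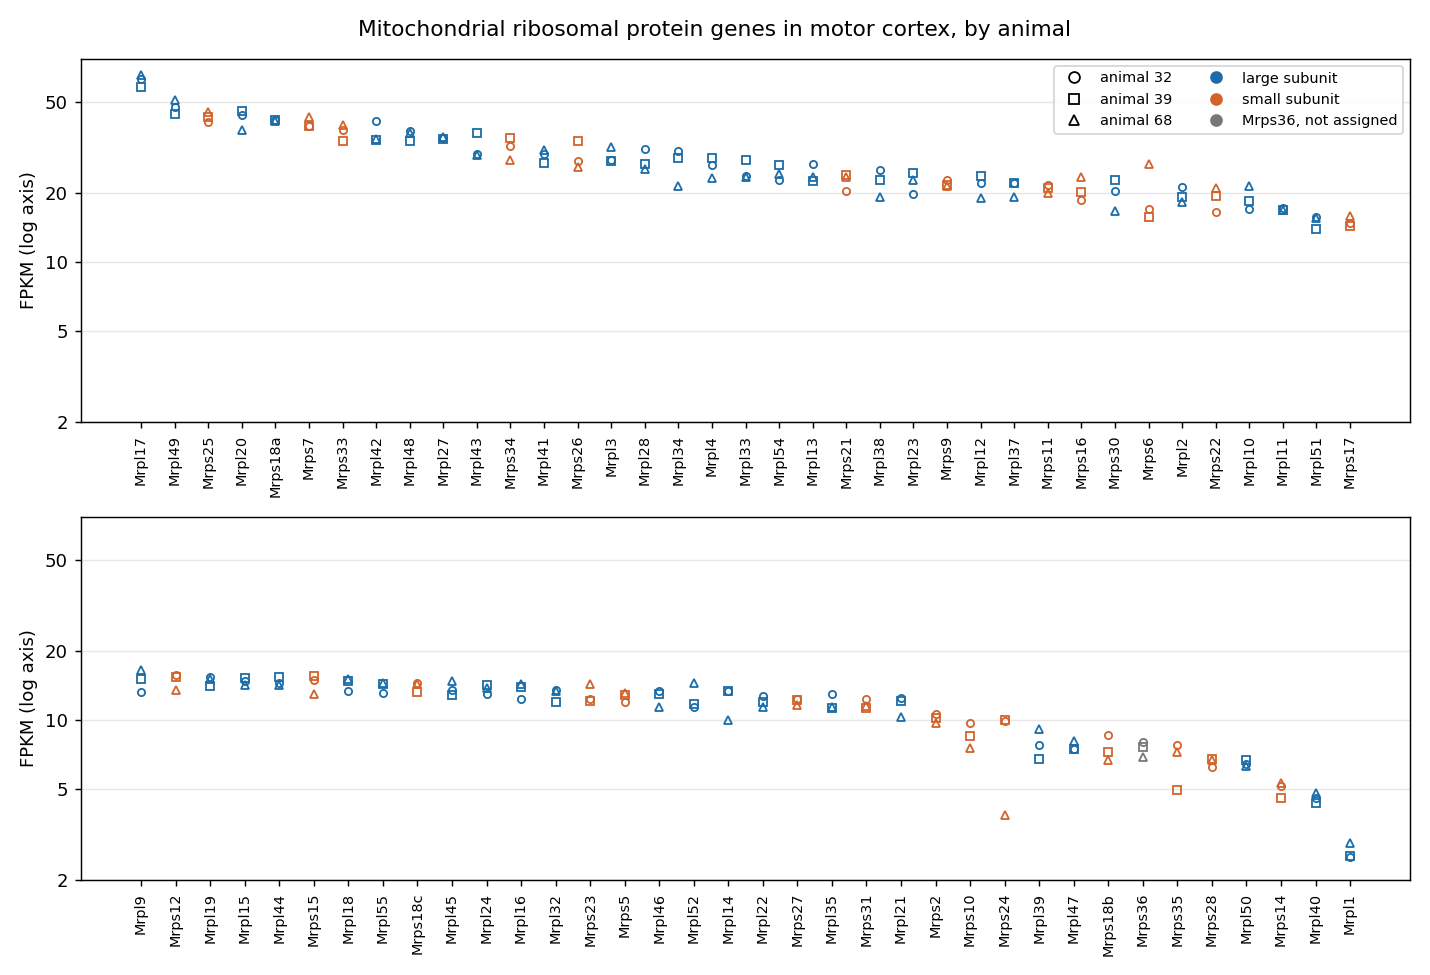
FPKM (log axis) of the 73 mitochondrial ribosomal protein genes whose mean reaches 1 FPKM, ordered by mean from Mrpl17 to Mrpl1; circles, squares and triangles are animals 32, 39 and 68, and colours mark the subunit. The points of most genes lie close together, with Mrps24, Mrps6 and Mrps35 the most spread.

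Whether each gene stood above or below a typical expressed gene of its own library was tested with the animals as replicates. The reference was the median of the genes past the filter, 9.82, 10.3 and 10.8 FPKM in animals 32, 39 and 68. In a limma fit across all 13378 genes (moderated one-sample test of log2(FPKM + 0.1) minus the reference, two-sided, Benjamini-Hochberg adjusted p under 0.05), 53 of the 73 members were above the reference, 10 were below and 10 did not pass. Among all genes tested, 42.8% were called above and 42.3% below. The median member stood at 0.54 on the log2 scale over the reference. Calls depended on the bound. With a bound of 2-fold (limma treat), 19 of 73 members were above, near the background of 23.1% of all genes, and 1 was below, where 21.8% of all genes were. Against the 60th percentile gene 35 members stood above, where 33.1% of all genes did. Without animal 39, 42 were called above (37.9% of all genes) and 5 below (36.7%), since Mrps35, Mrps36, Mrps18b, Mrpl39 and Mrpl47 no longer passed below the reference, with adjusted p from 0.0826 to 0.201 in limma.

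Large subunit genes held the highest and the lowest levels. Of 46 large subunit genes past the filter, 36 were called above the median gene, 5 below, and 5 did not pass. The shares of all genes tested were 42.8% above and 42.3% below. Mrpl17, the counterpart of a bacterial large subunit protein near the exit tunnel (chromosome 1, 170652294 to 170653920), measured 63.3, 58.4 and 66.0 FPKM in animals 32, 39 and 68. Its lowest animal exceeded the highest animal of the next member. It stood 2.59 on the log2 scale over the reference (SE 0.083, n = 3; adjusted p = 1.63e-05, limma; higher in 3 of 3 animals). Mrpl49, a protein without a bacterial counterpart, followed at 47.5, 44.5 and 51.3 FPKM, which overlapped the range of the next genes.

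Further large subunit genes among the 10 highest members were Mrpl20, Mrps18a, Mrpl42, Mrpl48 and Mrpl27. Mrpl20, whose bacterial counterpart acts early in the assembly of the large subunit, measured 43.8, 45.6 and 37.7 FPKM. Mrpl42 and Mrpl48, which have no bacterial counterpart, reached 41.3, 34.3 and 34.5 FPKM and 37.6, 33.9 and 36.6 FPKM. Mrpl27 measured 35.0, 34.4 and 35.1 FPKM, and its counterpart in bacteria reaches the site where peptide bonds form. These ranges overlapped, so no order among Mrpl42, Mrpl48 and Mrpl27 is given by the 3 animals. Mrpl3, also near the catalytic centre in bacteria, measured 27.9, 27.6 and 31.9 FPKM, and Mrpl12, of the stalk that recruits translation factors, 22.1, 23.9 and 19.2 FPKM.

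At the low end of the large subunit stood Mrpl1, Mrpl40 and Mrpl50. Mrpl1, of the mobile stalk beside the tRNA exit (chromosome 14, 14951495 to 15008150), measured 2.53, 2.55 and 2.92 FPKM, the lowest of all members past the filter. Its mean corresponds to 44.2 fragments per kilobase, the lowest such figure past the filter, and fewer fragments give a larger counting error. It stood below the reference (log2 ratio -1.91, SE 0.14; adjusted p = 0.000199, limma; lower in 3 of 3 animals). Mrpl40 measured 4.55, 4.34 and 4.81 FPKM (log2 ratio -1.16, SE 0.11; adjusted p = 0.000387, limma). Mrpl50 measured 6.45, 6.68 and 6.29 FPKM (log2 ratio -0.66, SE 0.10; adjusted p = 0.00215, limma). The ranges of these genes over the animals did not overlap. Mrpl40 and Mrpl50 have no bacterial counterpart, unlike Mrpl1.

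Small subunit genes ran from 5.02 to 43.2 FPKM in their means, with a 90th percentile 4.84 times the 10th, against 3.73 times for the large subunit. Of 26 past the filter, 17 were called above the median gene (42.8% of all genes), 4 below (42.3%), and 5 did not pass. Mrps25, a protein specific to mitochondria, was highest at 41.1, 42.9 and 45.5 FPKM (2.06 over the reference on the log2 scale, SE 0.076; adjusted p = 2.24e-05, limma). Mrps7, which in bacteria starts the folding of the head of the subunit, measured 39.3, 39.4 and 43.1 FPKM, and Mrps33 measured 37.7, 33.9 and 39.7 FPKM. Mrps25 and Mrps7 overlapped in range. Mrps12, of the decoding centre, measured 15.7, 15.5 and 13.6 FPKM (log2 ratio 0.53, SE 0.10; adjusted p = 0.00553, limma), which did not pass without animal 39 (adjusted p = 0.0518).

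The lowest small subunit genes were Mrps14, Mrps28 and Mrps35. Mrps14, counterpart of a protein of the bacterial head domain, measured 5.14, 4.59 and 5.34 FPKM (log2 ratio -1.02, SE 0.11; adjusted p = 0.000616, limma). Mrps28 measured 6.25, 6.75 and 6.72 FPKM (log2 ratio -0.64, SE 0.095; adjusted p = 0.00197, limma). Mrps35 measured 7.77, 4.94 and 7.28 FPKM, with animal 39 low (log2 ratio -0.64, SE 0.16; adjusted p = 0.0147, limma).

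By subunit, levels were close. The median of the 51 large subunit rows was 15.4 ± 0.180 FPKM and that of the 26 small subunit rows 14.7 ± 0.306 (SD, n = 3), a log2 ratio of 0.053, 0.032 and 0.12 in animals 32, 39 and 68. Over genes past the filter the ratio was 0.23 ± 0.020. With the mean of log2 values in place of the median, the direction turned (-0.50 ± 0.010), because the 5 rows listed at 0 among the subunit genes all belong to the large subunit. Genes with a bacterial counterpart (48 rows) had a median of 15.1 ± 0.136 FPKM and those specific to mitochondria (29 rows) 15.6 ± 0.134, a log2 ratio of -0.053 ± 0.025. The assignment to these classes is textbook knowledge of the mammalian ribosome and not part of the deposited data.

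The relatives of a single bacterial protein, S18, differed in level. Mammals keep 3 of them in different places of the ribosome. Mrps18a, which sits in the large subunit despite its symbol (chromosome 9, 17238385 to 17254949), measured 42.0, 42.0 and 41.5 FPKM. Mrps18c, at the place of the bacterial protein, measured 14.5, 13.3 and 14.3 FPKM, and Mrps18b, elsewhere in the small subunit, 8.64, 7.30 and 6.72 FPKM. The order was the same in every animal with no overlap between genes. Mrps18a exceeded Mrps18b 5.60 ± 0.674-fold and Mrps18c 2.99 ± 0.156-fold (SD, n = 3). Against the median gene, Mrps18a (log2 ratio 2.01, SE 0.081; adjusted p = 2.82e-05, limma) and Mrps18c (0.44, SE 0.089; adjusted p = 0.00627) were above, and Mrps18b was below (-0.45, SE 0.13; adjusted p = 0.0228).

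Symbols and place also differ for Mrps30 and Mrps36. Mrps30, a large subunit protein in mammals, measured 20.4, 22.8 and 16.8 FPKM. Mrps36, now known as part of the 2-oxoglutarate dehydrogenase complex and not of the ribosome, measured 8.06, 7.66 and 6.90 FPKM at its locus on chromosome 2 (30739855 to 30748428), and this row was not assigned to a subunit. A second row with that symbol, on chromosome 9 (82070838 to 82071260), was listed at 0.

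The 6 rows listed at 0 were Mrpl30, Mrpl36 and Mrpl53, the last 2 with 2 gene IDs each, and the second ID of Mrps36. So 3 of 76 symbols had no value above 0 in any row. Of these 6 rows, 5 carry a symbol that is given to several IDs. Among all rows whose symbol has several IDs, 80.9% of 4739 were at 0 in every library, against 38.9% of all rows. Small RNA genes are among the rows listed, and these shares were not split by kind of gene. The Mrpl30 row spans 87457 bases of chromosome 9 and overlaps Mitd1, on the opposite strand, over 76963 of them. Among rows named as cytosolic ribosomal protein genes, 12 of 95 were listed at 0 as well. Whether those 12 are genes in use or silent copies was not examined. A 0 here is not taken to show that the transcript is missing, and no fold is given for the member rows at 0. Near-identical copies can make the split of fragments uncertain, and whether they bear on these rows was not tested.

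The family stood well below the respiratory chain it serves. Nuclear-encoded subunits of the respiratory complexes and ATP synthase (85 rows) had a median of 78.8 ± 1.17 FPKM, a log2 ratio over the mitochondrial ribosomal genes of 2.41, 2.36 and 2.40 in animals 32, 39 and 68. Genes of the cytosolic ribosome (95 rows) had a median of 38.5 ± 4.32 FPKM over all rows and of 72.8 ± 1.96 FPKM over the 77 past the filter, where the log2 ratio to the mitochondrial ribosome was 2.21 ± 0.031. These comparisons rest on medians, are descriptions without a test, and depend on how uniquely the fragments of each family map. In the same limma test, 71 of 78 respiratory chain genes and 57 of 77 cytosolic ribosomal genes were called above the median gene, beside 53 of 73 here. Called below were 6, 15 and 10 in that order. Among all genes tested, 42.8% were above and 42.3% below.

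**Figure D2:**
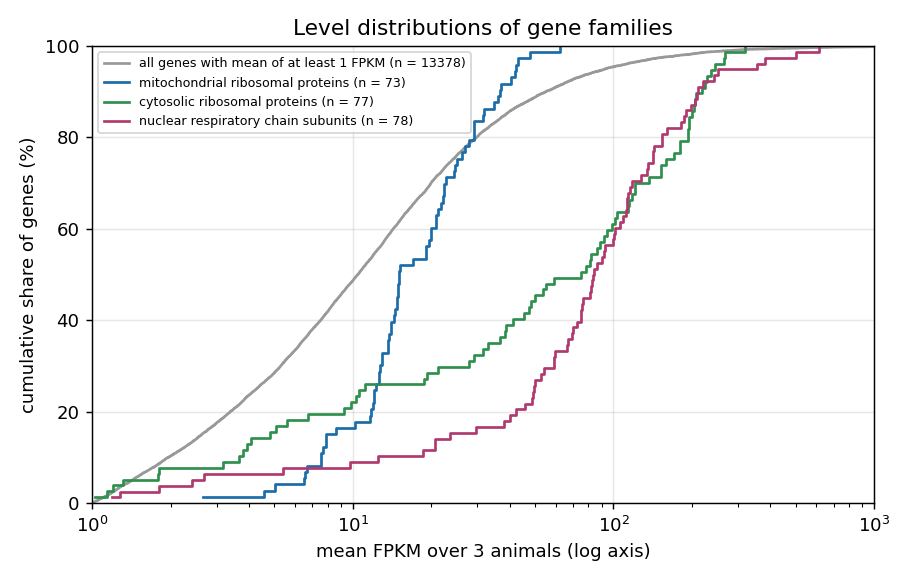
Cumulative share of genes (percent) against mean FPKM over 3 animals (log axis), for genes whose mean reaches 1 FPKM in 4 sets; the axis ends at 1000 FPKM. The curve of the 73 mitochondrial ribosomal genes rises steeply between 10 and 50 FPKM. Its 90th percentile (36.6 FPKM) lies left of those of the cytosolic ribosome (212 FPKM) and the respiratory chain (210 FPKM). At the low end the order differs, with 10th percentiles of 7.58, 3.73 and 16.7 FPKM in the same order of sets.

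Other genes of mitochondrial translation were mostly lower than the ribosomal proteins. Beside the counts that follow, 42.8% of all genes tested were called above the median gene and 42.3% below. Of 7 further ribosome-associated proteins whose symbols fall outside the rule, 6 were called above and 1 below in the limma test. Their median was 17.4 ± 1.07 FPKM. They included Chchd1, a small subunit protein, at 29.1, 27.7 and 29.9 FPKM, and Oxa1l, which inserts new proteins into the inner membrane, at 26.8, 24.4 and 24.6 FPKM. Dap3, a GTP-binding small subunit protein, measured 14.2, 11.8 and 12.7 FPKM. By mean, Ptcd3 was next to lowest at 12.3, 12.6 and 13.2 FPKM. Mrp63, a further ribosomal protein, was lowest at 6.83, 6.57 and 5.69 FPKM.

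Translation factors showed the reverse split, with 1 of 11 called above the median gene (42.8% of all genes), 7 below (42.3%) and 3 not passing. The elongation factor Tufm, which delivers tRNAs, stood out at 27.7, 27.8 and 27.6 FPKM, with Gfm1, the translocase, next at 12.8, 11.6 and 11.4 FPKM. The lowest were the initiation factor Mtif3 (4.96, 5.85 and 5.41 FPKM) and Guf1 (4.34, 4.22 and 4.65 FPKM), a relative of a bacterial elongation factor. Genes of ribosome assembly and ribosomal RNA modification had 3 of 21 above, 14 below and 4 not passing, with a further 3 under the filter. The highest were Ngrn (39.2 ± 2.97 FPKM) and the helicase gene Dhx30 (33.5 ± 2.76 FPKM). Ybey measured 0.624 ± 0.157 FPKM, and the methyltransferase gene Nsun4 was listed at 0.

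Aminoacyl-tRNA synthetases and amidotransferase subunits of mitochondria had 6 of 21 above (42.8% of all genes), 14 below (42.3%) and 1 not passing. The highest, Gars (54.6 ± 9.60 FPKM) and Kars (38.7 ± 1.99 FPKM), also serve the cytosol. The lowest with a value above 0 was Pars2 at 2.42 ± 0.195 FPKM, and Mars2 was listed at 0. Of 6 genes for mitochondrial transcription and RNA stability, Lrpprc, a messenger-binding protein (28.3 ± 1.12 FPKM), and Tfam, which packages the mitochondrial genome (15.0 ± 1.24 FPKM), were above and the other 4 below. They include Slirp, the binding partner of Lrpprc, at 2.53 ± 0.138 FPKM, and Tefm at 2.11 ± 0.413 FPKM. Among 10 transcriptional regulators linked to nuclear-encoded mitochondrial genes, 2 were above, 7 below and 1 did not pass. Yy1 (17.9 ± 1.10 FPKM) and the receptor gene Esrra (15.8 ± 0.616 FPKM) were highest, and Ppargc1b (2.81 ± 0.579 FPKM) and Myc (1.65 ± 0.134 FPKM) lowest.

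Levels of the family varied little between animals. The median SD over the 3 animals was 0.11 on the log2 scale for the 73 members, against 0.20 for all 13378 genes past the filter and 0.18 for the 10184 genes within the members' range of means. An SD under the median of all genes was found for 66 of 73 members (90.4%). For 70 of 73 the highest animal was under 1.5 times the lowest, which held for 67.5% of all genes past the filter. Respiratory chain genes had a median SD of 0.096 and cytosolic ribosomal genes 0.13. With 1 animal left out the median for members ran from 0.078 without animal 68 to 0.12 without animal 39, and that for all genes from 0.12 to 0.22 for the same animals. No test of these spreads was made.

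**Figure D3:**
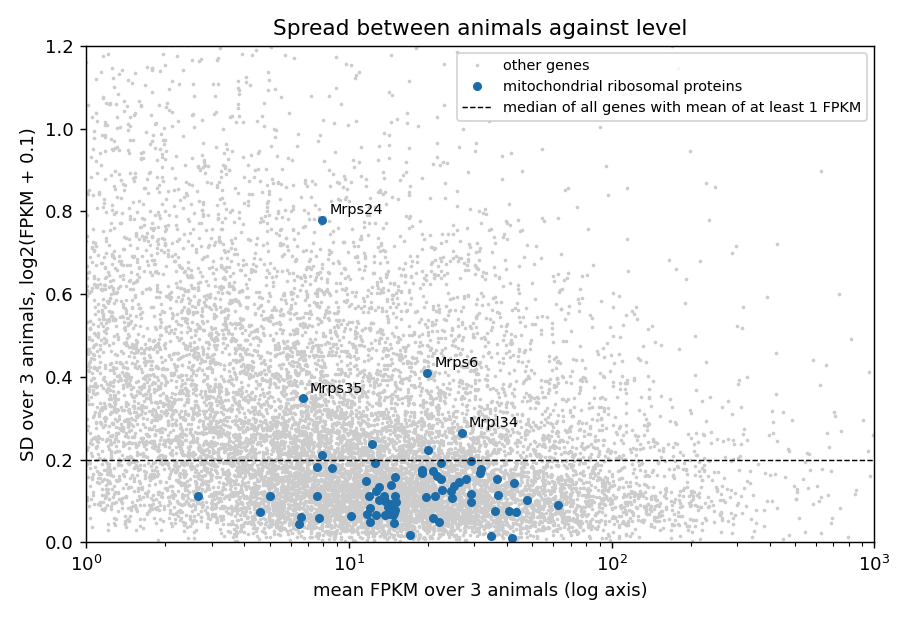
SD over 3 animals of log2(FPKM + 0.1) against mean FPKM (log axis) for genes whose mean reaches 1 FPKM, members in blue and other genes in grey; 245 genes with an SD above 1.2 or a mean above 1000 FPKM fall outside the axes. Of the members, 66 of 73 lie below the dashed line, the median SD of all these genes, and Mrps24 lies highest.

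The steadiest members on the deposited FPKM were Mrps18a, Mrpl27 and mrpl11, with SDs of 0.010, 0.016 and 0.017 on the log2 scale. This order depends on the scaling. Over the median gene of each library, Mrps18a stood at log2 ratios of 2.09, 2.02 and 1.94 in animals 32, 39 and 68. Mrps25 stood at 2.06, 2.05 and 2.07 in the same order of animals. The gene listed as mrpl11, whose bacterial counterpart forms the base of the factor-binding stalk, measured 17.3, 16.9 and 17.0 FPKM. The most variable member was Mrps24 (chromosome 14, 85947765 to 85951899), a small subunit protein at the messenger entry. It measured 9.88, 10.02 and 3.84 FPKM in animals 32, 39 and 68, an SD of 0.78. Animal 68 alone was low, and the log2 ratio to the median gene (-0.50, SE 0.32; adjusted p = 0.202, limma) did not pass.

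Mrps6 had the opposite pattern, at 17.0, 15.8 and 26.8 FPKM with animal 68 high (SD 0.41). In Mrps35 animal 39 was low (SD 0.35). Mrpl34 (30.7, 28.4 and 21.6 FPKM), Mrpl14 (13.4, 13.4 and 10.1 FPKM) and Mrps30 were lowest in animal 68. Without that animal Mrpl14 was called above the median gene (adjusted p = 0.00957, limma), which it was not with all 3 (log2 ratio 0.24, SE 0.14; adjusted p = 0.156). The choroid plexus, oligodendrocyte, astrocyte, microglial and striatal marker sums given above were highest in the same animal, and their part in these differences was not tested.

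Between pairs of animals, the family's median moved little. The median log2 difference of the 73 members was -0.021 for animal 39 minus 32, 0.0060 for 68 minus 39 and -0.020 for 68 minus 32. For all genes past the filter it was 0.043, 0.035 and 0.074 in the same order. The sign depended on the scaling in both pairs with animal 68: 68 minus 32 was 0.046 with equal totals and -0.12 with median-of-ratios scaling, and 68 minus 39 was 0.052 and -0.037. A difference over 2-fold was found for 0 members between animals 32 and 39, where 3.14% of all genes exceeded it (2.59% higher in 39 and 0.553% higher in 32). It was found for 1 member between 39 and 68, where 6.14% of all genes did (4.18% higher in 68 and 1.97% higher in 39), and for 1 between 32 and 68, where 12.8% did (9.77% higher in 68 and 3.05% higher in 32). In both pairs the member was Mrps24, lower in animal 68 than in animal 39 (2.57-fold on FPKM plus 0.1) and animal 32 (2.53-fold). The next largest fall and rise from animal 32 to 68 were 1.42-fold for Mrpl34 and 1.57-fold for Mrps6.

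Animal 68 held the highest value for 26 of 73 members (35.6%), animal 32 for 28 (38.4%) and animal 39 for 19 (26.0%). Across all genes past the filter, animal 68 was highest for 46.7% and animal 32 for 29.2%. The rank order of the members was similar in all libraries, with a Spearman's rho across the 73 genes of 0.976 for animals 32 and 39, 0.954 for 39 and 68 and 0.950 for 32 and 68. These coefficients are across genes, which share each library and are not independent replicates.

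**Figure D4:**
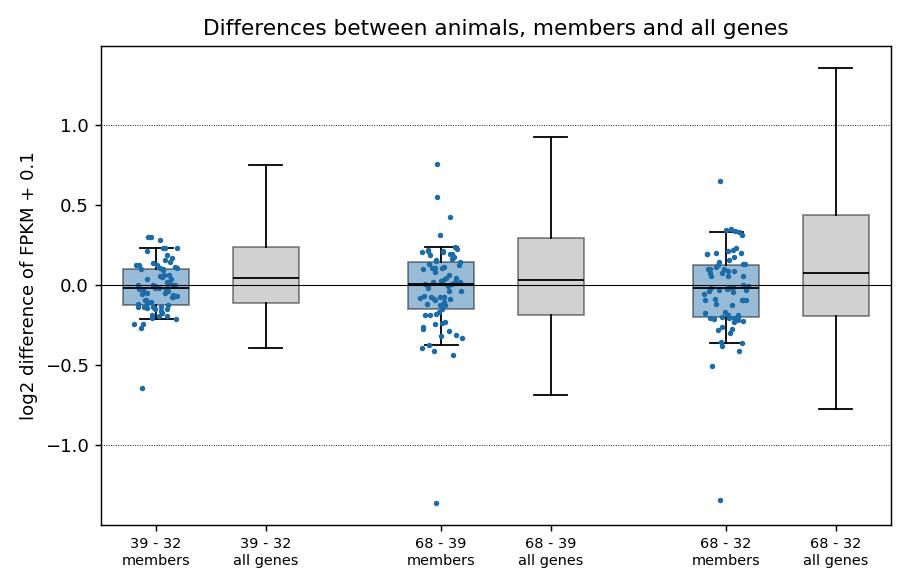
Log2 differences of FPKM + 0.1 between pairs of animals for the 73 members (blue, with points) and for all 13378 genes past the filter (grey); boxes show quartiles and median, whiskers the 5th and 95th percentiles, and dotted lines 2-fold. The members' boxes are narrower than those of all genes, and Mrps24 lies beyond the 2-fold line in both comparisons with animal 68.

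The position of these genes was examined in the loci of the files. Head-to-head neighbours, with start sites on opposite strands at most 1000 bases apart and transcription running away from each other, were found for 16 of 73 members past the filter (21.9%). The share was 8.92% among all 13378 genes past the filter and 16.7% among 78 respiratory chain genes. At most 300 bases apart, 13 members had such a neighbour (17.8%), against 5.55% of all genes past the filter and 12.8% of the respiratory chain genes. Counted once for each of the 16 members, the gap had a median of 147 bases. It ran from 15 bases, between Mrps12 and Sars2, to 994.

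In 1 pair both genes were members. Mrpl46, a large subunit protein, and Mrps11, a small subunit protein, start 71 bases apart on chromosome 1 (start sites 140477796 and 140477868). Mrps11 measured 21.7, 21.1 and 19.99 FPKM and Mrpl46 13.5, 13.0 and 11.4 FPKM, with both highest in animal 32 and lowest in animal 68. Mrps11 was above the median gene (log2 ratio 1.02, SE 0.091; adjusted p = 0.000328, limma). Mrpl46 did not pass (0.29, SE 0.11; adjusted p = 0.0505) but did without animal 68 (adjusted p = 0.0126).

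Examples show levels on either side of the member. Sars2, the mitochondrial seryl-tRNA synthetase, measured 5.73, 5.10 and 5.39 FPKM beside Mrps12. Ndufb5, a subunit of respiratory complex I, measured 52.2, 49.4 and 46.3 FPKM, and its neighbour Mrpl47 measured 7.52, 7.52 and 8.07 FPKM at a gap of 265 bases. Psma2, a proteasome subunit, measured 65.7, 65.04 and 65.8 FPKM beside Mrpl32 (13.6, 11.96 and 13.4 FPKM). Of the 14 pairs with a gene outside the family, the member was higher in every animal in 9, lower in every animal in 4, and overlapped in 1, Mrpl50 beside Zfp189. Levels within these pairs thus differed in either direction.

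**Figure D5:**
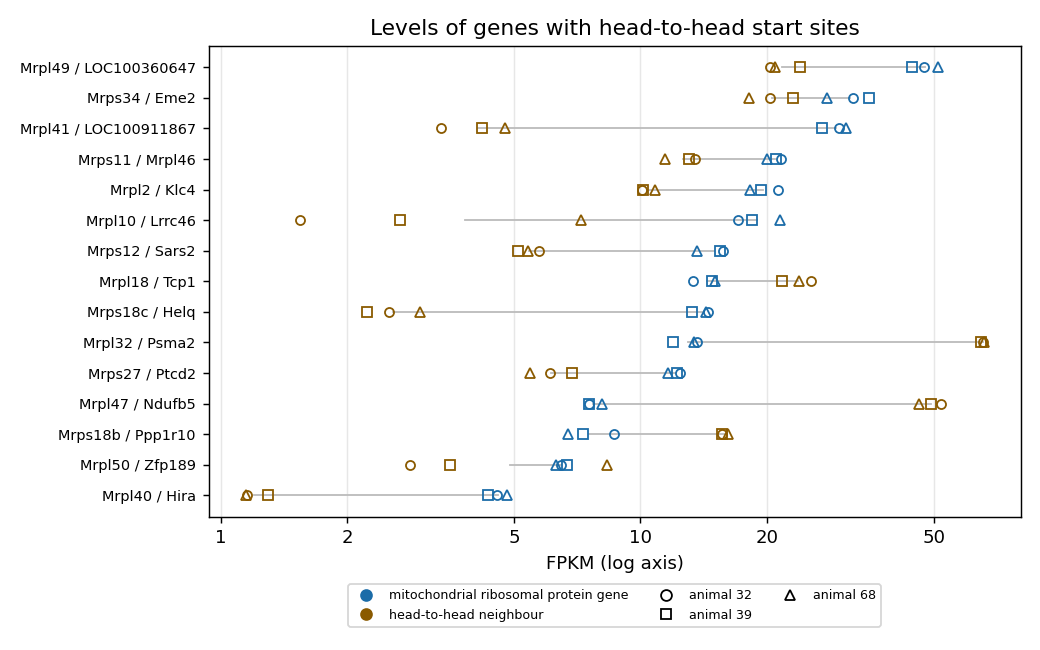
FPKM (log axis) in each animal of 15 pairs of genes with head-to-head start sites, the mitochondrial ribosomal gene in blue and its neighbour in brown, with grey lines joining the means; in the row Mrps11 / Mrpl46 both are members. Neighbours lie on either side, from Psma2 and Ndufb5 above their partners to Hira and Helq below.

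Overlapping loci were found for 11 of 73 members past the filter (15.1%), against 19.0% of all genes past the filter. The 9 overlapping partners with a value above 0 all lay on the opposite strand and were lower than the member. Examples are Peo1, which encodes the mitochondrial DNA helicase and overlaps Mrpl43 by 48 bases, at 9.88 FPKM against 31.9, and Gga3 beside Mrps7 at 17.3 FPKM against 40.6. Rsph9, a protein of motile cilia that overlaps Mrps18a over 6709 bases, measured 2.88, 3.82 and 9.34 FPKM and was highest in animal 68, where Mrps18a was not. The kit's strandedness is not given in the sources used here, so fragments of such pairs cannot be told apart with certainty.

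Promoter sequences are shown for 4 members, so that the letters around their starts can be compared. They are the highest (Mrpl17), the steadiest on FPKM (Mrps18a), the one sharing its start region with another member (Mrpl46) and the lowest (Mrpl1). Each sequence holds 300 bases, from 250 before to 50 after the start. The source is RefSeq in the GRCr8 build, a different build from that of the loci above. All 4 lie on the minus strand, at chr1:169575650-169575949, chr9:22367331-22367630, chr1:142116981-142117280 and chr14:13663472-13663771 in that order, and are written 5′ to 3′ in the direction of the gene. Capitals mark matches, on either strand, to the letters CCGGAAG (bound by ETS factors such as Gabpa), GCGCATG (within the palindromic site of Nrf1) and GATGGCG (within the site of Yy1).
Mrpl17: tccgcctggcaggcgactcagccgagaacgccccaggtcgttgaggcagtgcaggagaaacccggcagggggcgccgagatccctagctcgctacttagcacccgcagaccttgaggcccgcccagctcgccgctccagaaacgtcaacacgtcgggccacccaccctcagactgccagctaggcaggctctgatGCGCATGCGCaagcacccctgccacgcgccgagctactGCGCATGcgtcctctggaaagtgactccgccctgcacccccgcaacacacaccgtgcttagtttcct
Mrps18a: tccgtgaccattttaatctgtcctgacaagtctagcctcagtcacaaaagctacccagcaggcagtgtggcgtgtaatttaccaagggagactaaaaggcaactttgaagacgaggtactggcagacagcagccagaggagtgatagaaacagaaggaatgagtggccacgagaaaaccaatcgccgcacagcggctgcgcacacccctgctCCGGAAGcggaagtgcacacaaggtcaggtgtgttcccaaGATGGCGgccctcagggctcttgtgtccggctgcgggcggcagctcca
Mrpl46: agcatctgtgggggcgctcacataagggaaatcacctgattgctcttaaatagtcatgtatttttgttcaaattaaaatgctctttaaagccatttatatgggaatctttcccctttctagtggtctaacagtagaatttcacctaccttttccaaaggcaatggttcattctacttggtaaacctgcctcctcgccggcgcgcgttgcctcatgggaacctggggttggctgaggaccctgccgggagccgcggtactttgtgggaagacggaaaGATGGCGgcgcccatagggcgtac
Mrpl1: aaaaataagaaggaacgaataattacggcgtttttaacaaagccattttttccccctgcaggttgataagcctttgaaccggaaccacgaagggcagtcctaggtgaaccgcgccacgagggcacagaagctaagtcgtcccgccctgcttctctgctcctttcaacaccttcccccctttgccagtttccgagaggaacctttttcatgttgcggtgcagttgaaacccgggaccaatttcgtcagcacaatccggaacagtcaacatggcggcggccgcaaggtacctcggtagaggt

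The promoter of Mrpl17 held Nrf1 matches, that of Mrps18a an ETS and a Yy1 match, and that of Mrpl46 a Yy1 match. The window of Mrpl1 held no exact match. It does hold CATGGCG and CCGGAAC, which differ from the Yy1 and ETS letters only in the first and the last base, respectively. RefSeq promoters were matched by symbol for 61 of the 76 members, of which 58 were past the filter. Among these 58, the ETS letters occurred in 16 (27.6%), against 16.6% of the 9214 promoters matched to genes past the filter. The Yy1 letters occurred in 9 of 58 (15.5%), against 7.39%, and the Nrf1 letters in 6 (10.3%), against 6.99%. At least 1 of the 3 was present in 26 of 58 (44.8%), against 27.5%. With the 3 members listed at 0, the ETS letters occurred in 19 of 61 (31.1%), the Yy1 letters in 10 (16.4%) and the Nrf1 letters in 6 (9.84%). Over all 33469 promoters the shares were 8.75, 3.89 and 3.77% in that order.

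The letters TATAAA, the core of a TATA box, were sought on either strand and anywhere in the window. A match therefore need not be a TATA box. Such matches occurred in 7 of the 58 members past the filter (12.1%), against 6.41% of the genes past it and 14.2% of all promoters. The median share of G and C was 55.7% in these members' promoters, against 61.3% for genes past the filter and 51.7% for all promoters. Respiratory chain promoters (53 matched, with no filter) held the ETS letters in 30.2%, the Yy1 letters in 17.0%, the Nrf1 letters in 15.1% and TATAAA in 7.55%. The 16 members past the filter with the ETS letters had a median of 22.2, 26.1 and 23.5 FPKM in animals 32, 39 and 68, and the 42 without them 15.4, 15.6 and 16.2 FPKM. The 9 with the Yy1 letters had medians of 13.5, 13.03 and 11.6 FPKM, and the 49 without them 17.1, 16.9 and 18.3 FPKM. The 6 with the Nrf1 letters had medians of 14.1, 13.8 and 13.8 FPKM, and the 52 without them 17.2, 17.7 and 17.6 FPKM. These matches are descriptions of the letters in a window, and no binding was measured.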

How the data were processed

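Motor cortex mRNA of 3 untreated rats was sequenced, 1 library per animal. The FPKM values were deposited by the authors, who counted and normalized fragments per gene and finished with a Perl script, per the labels. Per the submitters' processing notes, the tools included HISAT2 2.0.4 and StringTie 1.3.0 and the build was Rnor_6.0; their roles are not stated there. The sources used here give no annotation release, strandedness or read length.

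FPKM is not a count, so no count test was used. Depth was inferred from genes with a locus of up to 400 bases, taking the commonest low product of value and span as 1 fragment. Then 85.0, 86.6 and 82.0% of such values lay within 0.02 fragments of a whole number, part of which is met by construction. Values were analysed as log2(FPKM + 0.1), which understates differences of low genes. Genes whose mean reached 1 FPKM were tested in limma 3.58.1 (R 4.3.3, mean-dependent prior, prior degrees of freedom 2.89), with Benjamini-Hochberg adjustment over 13378 genes. P-values rest on only these 3 animals as replicates. They do not cover errors in a gene's FPKM that recur in every animal. On data simulated with the real spreads and 200 of 13378 genes shifted, a version without the mean-dependent prior recovered 0, 42.0 and 81.0%. The shifts were 0.5, 1 and 2 on the log2 scale, with 0, 2 and 5 false calls. In the real data 85.0% of genes were called, so the Benjamini-Hochberg cutoff was less strict there. The simulated shares therefore do not give the recovery of the test on the real data. Classes, medians, loci and motifs were computed in Python 3.11.15 with pandas 2.3.3.

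The members, gene lists and tests were chosen with earlier results of these data known, and the promoter motifs (several letterings were tried), loci and head-to-head distance after the values were seen. Named members are the 10 highest, the 8 lowest past the filter, every member under it, the 6 most and 3 least variable, Mrps18a, Mrps18b, Mrps18c, Mrps30 and Mrps36, and of other lists the 2 highest and 2 lowest. Other genes were named for their role, a lost call or a neighbouring locus after their values were seen. Where a list symbol has 2 IDs, the higher was taken. Alternatives changed the pseudocount, filter, reference, prior, bound, scaling and list summary and left out each animal.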

Additional observations from a re-analysis of the deposited data

How the results depend on the processing

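No paired analysis was possible because all 3 animals form 1 group. The count of 53 members above the median gene stayed from 52 to 54 with another pseudocount, filter or prior, was 35 against the 60th percentile gene (33.1% of all genes) and 19 with a bound of 2-fold (23.1%), and ran from 42 to 54 with 1 animal left out (37.9 to 44.0%). The count of 10 below was 16 of 79 with no filter (75.7% of all genes) and 1 with a bound of 2-fold (21.8%), and ran from 5 to 10 with 1 animal left out (36.7 to 44.0%). In either direction 63 of 73 members were called, where 85.0% of all 13378 genes were. Of these 63, 47 were called whichever animal was left out, a share not computed for all genes. Against the 60th percentile gene, the log2 ratios of Mrpl14 (-0.22), Mrps18c (-0.020) and Mrpl46 (-0.17) turned negative, which a higher reference brings by construction.

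The members' median of 15.0 FPKM was 11.3 as a mean of log2 values and 15.7 over genes past the filter. The log2 ratio of large to small subunit was -0.50 as a mean of log2 values, which gives weight to rows at 0, and 0.23 past the filter. That of bacterial-type to mitochondria-specific genes was -0.086 and -0.17 in the same order. Past the filter, an alternative added after the data were seen, the respiratory chain exceeded the members by 2.44 and the cytosolic ribosome by 2.21 on the log2 scale. At 16.6 fragments per kilobase for each FPKM, depth limits the precision of low members such as Mrpl1. In groups of 3 no sample was tested for lying apart.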
